A study of Homo sapiens with 6 samples.

Results

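The mRNAs of 10 subunits of the translation initiation factor eIF3 were followed across RNA immunoprecipitation libraries (RIP-seq, sequencing of the RNA that an antibody recovers) made from HCT116 cells, in the fraction that holds free 40S subunits. The 10 genes were taken by their Ensembl identifiers, EIF3A, EIF3B, EIF3D, EIF3E, EIF3F, EIF3G, EIF3H, EIF3K, EIF3L and EIF3M, from 60554 gene identifiers in each library. All 10 passed the filter on low counts, which kept 10788 genes. The symbols come from the list that defined the group, since the count files carry identifiers alone, and rows of further eIF3 subunits were not analysed here. The rule for the members names genes and uses no measured value, but it was written with earlier results of these data known.

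HCT116 is a human colorectal carcinoma line, grown without any treatment that the labels name. The free 40S fraction is the part of a sucrose gradient with small ribosomal subunits that are not in assembled ribosomes (the sample descriptions call it a 40S monosome fraction). There were 2 libraries of RNA recovered with an antibody against LARP1 (LARP1 IP), 2 recovered with normal rabbit serum IgG as the background control (IgG IP), and 2 of the unselected RNA of the fraction (Input). The labels call the 2 libraries of a group biological replicates but do not name separate cultures. The p-values below therefore set each fold change against the spread between these libraries only. That spread was estimated over the groups together, with information shared across genes.

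eIF3 is the largest of the initiation factors. It binds the small ribosomal subunit, helps to recruit the initiator tRNA complex and the mRNA, and keeps the small subunit from joining the large one too early. LARP1 is an RNA-binding protein that recognises the cap and the first bases of mRNAs with a terminal oligopyrimidine (TOP) motif, a C at the very start of the transcript followed by an unbroken run of pyrimidines. Many mRNAs for ribosomal proteins and translation factors carry this motif, and the comparison made here is between the eIF3 subunits listed with a known TOP motif (EIF3E, EIF3F, EIF3H, EIF3K and EIF3L, called the listed TOP subunits from here on) and the other 5.

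The start of the transcript is the part of these mRNAs that the comparison turns on, so the annotated starts were read from RefSeq promoters on GRCh38.p14, where 5 of the 10 members had an entry. Each line gives 20 bases before and 20 bases from the annotated start, 5′ to 3′, and the capitals mark the unbroken pyrimidine run that begins at the start itself. EIF3F and EIF3K are listed TOP subunits, and EIF3D, EIF3M and EIF3B belong to the other 5.
EIF3F, chr11:7987317-7987356, plus strand: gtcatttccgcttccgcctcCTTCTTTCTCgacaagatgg
EIF3K, chr19:38619168-38619207, plus strand: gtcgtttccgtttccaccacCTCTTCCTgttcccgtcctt
EIF3D, chr22:36529147-36529186, minus strand: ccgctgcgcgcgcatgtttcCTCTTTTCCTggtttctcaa
EIF3M, chr11:32583811-32583850, plus strand: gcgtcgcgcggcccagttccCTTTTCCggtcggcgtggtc
EIF3B, chr7:2354807-2354846, plus strand: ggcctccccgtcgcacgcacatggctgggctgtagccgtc
The annotated starts of EIF3F and EIF3D each opened a run of 10 pyrimidines that began with C, that of EIF3K a run of 8 and that of EIF3M a run of 7. EIF3B had an A and no run at the start in the promoter table, which is position 2354827, while the annotated gene begins upstream of it, at 2354086, so the outermost start of this gene was not read. A C at the start within a run of at least 5 pyrimidines, read in the sense of the transcript, was found at 4.07% of all 35116 annotated promoters (1429 of them). EIF3D and EIF3M therefore had such a start in this annotation although they are not among the listed TOP subunits. An annotated start is 1 position per gene and need not be where transcripts begin in HCT116 cells. EIF3A, EIF3E, EIF3G, EIF3H and EIF3L are shown by name only.

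The 6 libraries held between 4135463 and 8069554 counts. A pair of genes with the most counts took 23.95% ± 3.8 of the LARP1 IP, 71.2% ± 0.46 of the IgG IP and 88.3% ± 0.54 of Input (SD, n = 2 each). Libraries were therefore scaled by TMM, which sets most genes to a common level, and levels are TMM-normalised counts on the CPM scale, which expresses each count relative to the scaled size of its library. These levels were compared for the same gene across libraries and not between genes, since no transcript lengths were used. Raw counts of single members ran from 133 to 8449 with the LARP1 antibody, from 155 to 1420 with IgG and from 70 to 581 in Input, so counting error was largest in Input. A change in this assay is relative to the other RNAs of the same library, and the amount of RNA recovered is not known.

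Of the 10 subunit mRNAs, 8 were higher in the LARP1 IP than in the IgG IP and the same 8 were higher than in Input, and none was lower (edgeR's quasi-likelihood test, Benjamini-Hochberg adjusted p under 0.05). Among all genes tested, 8.54% were called higher against the IgG IP and 4.63% against Input, while 2.29% and 1.52% were called lower. The 8 were all 5 listed TOP subunits and EIF3D, EIF3G and EIF3M. EIF3A and EIF3B did not pass in either comparison, and EIF3A was the 1 member lower at an unadjusted p under 0.05, over the IgG IP (edgeR unadjusted p = 0.0155, adjusted p = 0.0988). In a fit that leaves out 1 library, the group left with 1 is assumed to vary like the others. Without Input replicate 1 or Input replicate 2, edgeR called 0 members and 0 of all genes over Input, with 8 members (and 1872 or 1189 genes in all) at an unadjusted p under 0.05, while DESeq2 called 7 members in each case. The 2 LARP1 IP libraries lay above both IgG IP libraries for 8 members and above both Input libraries for 9, as they did for 27.3% and 28.8% of all genes tested. The median log2 fold change of the 10 members was 2.82 over the IgG IP and 2.41 over Input, beside medians of -0.06 and 0.03 for all 10788 genes. Both comparisons use the same LARP1 IP libraries, so they do not count as independent of each other. The levels in every library are drawn in the plot of CPM by subunit.

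**Figure D1:**
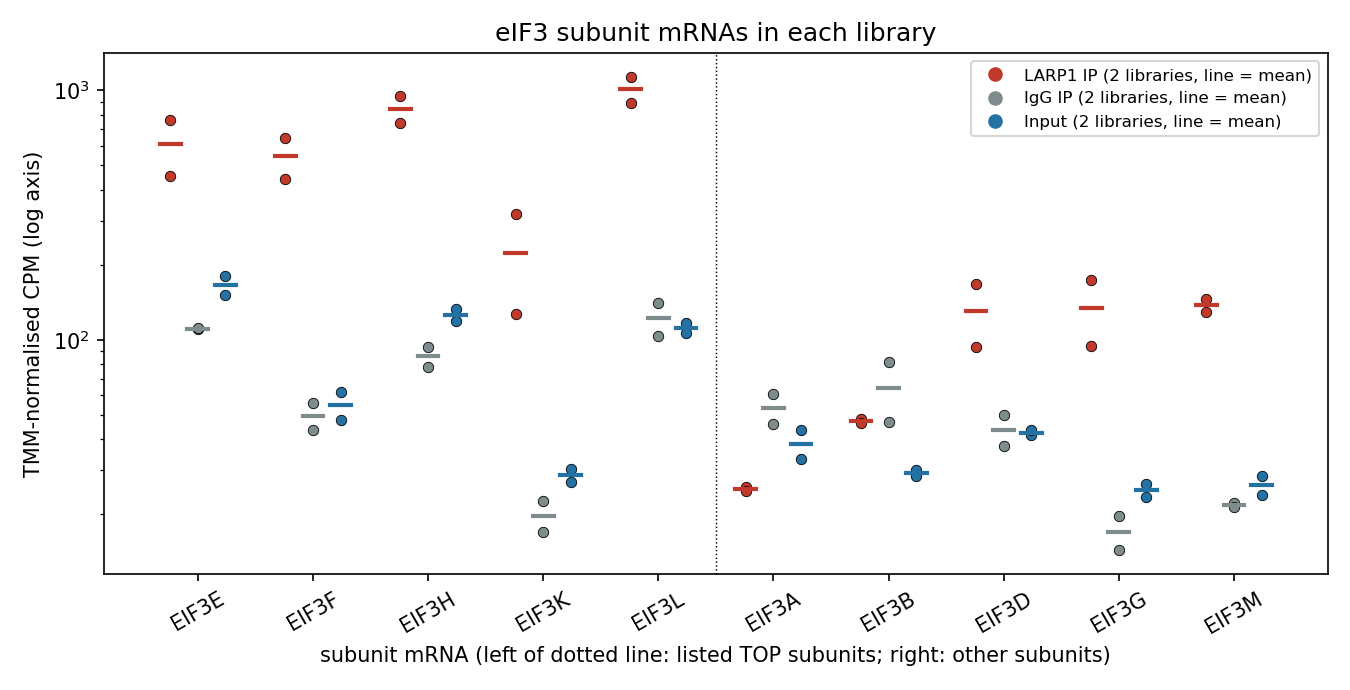
TMM-normalised CPM (log axis) of each eIF3 subunit mRNA in the LARP1 IP, the IgG IP and Input, with 1 point per library and a short line at the mean of 2 libraries. The LARP1 IP points of EIF3E, EIF3F, EIF3H, EIF3K, EIF3L, EIF3D, EIF3G and EIF3M lie above all control points, while those of EIF3A lie below them and those of EIF3B lie above Input and near the lower IgG IP point.

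Among the listed TOP subunits, EIF3F and EIF3H are the pair with an MPN domain, a fold shared with proteasome and signalosome subunits. EIF3F (ENSG00000175390.12) stood at 441 and 646 CPM in the LARP1 IP, against 43.7 and 55.8 CPM in the IgG IP and 61.7 and 47.8 CPM in Input. The LARP1 IP libraries were both far above the controls, and the libraries of the 2 controls overlapped. The log2 fold change was 3.45 ± 0.43 (SE) over the IgG IP and 3.31 ± 0.43 over Input, or 10.9-fold and 9.93-fold, and edgeR gave adjusted p-values of 0.000275 and 0.000935. EIF3H (ENSG00000147677.10) stood at 739.6 and 951 CPM in the LARP1 IP, against 77.9 and 94.1 CPM in the IgG IP and 119 and 133 CPM in Input. Again no control library reached the LARP1 IP, and both IgG IP libraries lay below both Input libraries. EIF3H was 9.83-fold higher than in the IgG IP and 6.72-fold higher than in Input (3.30 ± 0.41 and 2.75 ± 0.41 on the log2 scale, with adjusted p of 0.000275 and 0.00123 by edgeR).

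EIF3K and EIF3L encode a pair of PCI-domain subunits that bind each other at the edge of the complex. EIF3L (ENSG00000100129.17) stood at 886 and 1135 CPM in the LARP1 IP, against 104 and 141 CPM in the IgG IP and 117 and 106 CPM in Input. Its control groups overlapped, and both lay far below the LARP1 IP. The log2 fold change was 3.05 ± 0.42 over the IgG IP and 3.18 ± 0.42 over Input (8.26-fold and 9.05-fold, edgeR adjusted p = 0.000489 and 0.000935). EIF3K (ENSG00000178982.9) stood at 127 and 320.1 CPM in the LARP1 IP, against 17.0 and 22.5 CPM in the IgG IP and 26.8 and 30.4 CPM in Input. The 2 LARP1 IP libraries differed by a larger ratio for EIF3K than for any other member, and even the lower one was above every control library. Its log2 fold change was 3.50 ± 0.50 over the IgG IP and 2.96 ± 0.50 over Input (edgeR adjusted p = 0.000694 and 0.00293). These values were 4.02 and 3.49 without LARP1 replicate 1, against 2.69 and 2.16 without LARP1 replicate 2, where EIF3K was the lowest of the listed TOP subunits in both comparisons.

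EIF3E (ENSG00000104408.9), also a PCI-domain subunit and known by the older name INT6, had the smallest change of the listed TOP subunits in both comparisons when all 6 libraries were used. It stood at 763 and 455 CPM in the LARP1 IP, against 110.4 and 112 CPM in the IgG IP and 152 and 180.3 CPM in Input. It was higher in the LARP1 IP than in every control library, but LARP1 replicate 1 was the higher library for EIF3E and replicate 2 for the other 4 listed TOP subunits. The log2 fold change was 2.46 ± 0.42 over the IgG IP and 1.88 ± 0.41 over Input (5.49-fold and 3.67-fold, edgeR adjusted p = 0.0023 and 0.0154). Without LARP1 replicate 2 these values were 2.79 and 2.22, above those of EIF3K.

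Of the other 5 subunits, EIF3G, which carries an RNA recognition motif, and EIF3M, a further PCI-domain subunit, had folds within the range of the listed TOP subunits when all 6 libraries were used. EIF3G (ENSG00000130811.11) stood at 94.3 and 173 CPM in the LARP1 IP, against 14.3 and 19.6 CPM in the IgG IP and 23.5 and 26.4 CPM in Input. EIF3M (ENSG00000149100.12) stood at 129.8 and 146 CPM in the LARP1 IP, against 22.2 and 21.4 CPM in the IgG IP and 28.5 and 23.9 CPM in Input. For either gene the LARP1 IP libraries were clear of all 4 control libraries. EIF3G was higher by a log2 fold change of 2.98 ± 0.45 over the IgG IP and 2.42 ± 0.44 over Input (edgeR adjusted p = 0.000921 and 0.00561). EIF3M was higher by 2.66 ± 0.39 and 2.39 ± 0.40 on the log2 scale (edgeR adjusted p = 0.000867 and 0.00273). Both lay above EIF3E in each comparison, but this order rested on LARP1 replicate 2, except for EIF3M over Input. Without LARP1 replicate 2, EIF3G stood at 2.48 and EIF3M at 2.58 over the IgG IP, both below EIF3E at 2.79. Over Input EIF3G then stood at 1.93, below EIF3E at 2.22, and EIF3M at 2.32, still above it. The differences between genes were not tested.

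EIF3D (ENSG00000100353.17), the subunit that can itself bind the cap of certain mRNAs, had a smaller change. It stood at 93.3 and 167 CPM in the LARP1 IP, against 37.4 and 49.8 CPM in the IgG IP and 41.6 and 43.5 CPM in Input. The LARP1 IP was above both controls without overlap, but its 2 libraries were further apart than those of either control. The log2 fold change was 1.58 ± 0.42 over the IgG IP and 1.61 ± 0.42 over Input (2.99-fold and 3.06-fold, edgeR adjusted p = 0.0281 and 0.039). Of the 8 called members it was the one nearest to the threshold. Without LARP1 replicate 2 its log2 fold change was 1.10 over the IgG IP and 1.15 over Input and it passed in neither (edgeR adjusted p = 0.197 and 0.276). It also missed the threshold over the IgG IP without IgG replicate 1, Input replicate 1 or Input replicate 2 (edgeR adjusted p = 0.168, 0.0582 and 0.0713).

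EIF3A and EIF3B, the large subunits that act as scaffolds of the complex, were not called in the LARP1 IP. EIF3A (ENSG00000107581.12) stood at 25.8 and 24.7 CPM in the LARP1 IP, against 60.4 and 46.0 CPM in the IgG IP and 33.2 and 43.5 CPM in Input. Both LARP1 IP libraries were below all control libraries, which 25.9% of genes showed against the IgG IP and 22.8% against Input. The log2 fold change was -1.07 ± 0.39 over the IgG IP and -0.60 ± 0.39 over Input, and neither passed (edgeR adjusted p = 0.0988 and 0.412). Against the IgG IP the call of EIF3A depended on the processing. It passed as lower with a minimum count of 50 (log2 fold change -1.19, edgeR adjusted p = 0.0486) and with the replicate number as a block (-1.07, edgeR adjusted p = 0.0257). It also passed with total counts computed without the 2 most abundant genes (-2.27, edgeR adjusted p = 0.0082), which put the median gene at -1.25. Scaling by total counts put the median gene at 1.75 over Input, and there EIF3A stood at 1.11, below that median but on the other side of 0 (edgeR adjusted p = 0.04).

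EIF3B (ENSG00000106263.17) stood at 48.05 and 46.3 CPM in the LARP1 IP, against 81.5 and 46.8 CPM in the IgG IP and 30.2 and 28.6 CPM in Input. The LARP1 IP libraries were both above Input and both close to IgG replicate 2, while IgG replicate 1 stood far above. On the log2 scale it differed by -0.44 ± 0.40 from the IgG IP (edgeR adjusted p = 0.528) and by 0.68 ± 0.41 from Input (edgeR adjusted p = 0.366). Without IgG replicate 1 the first of these values was 0.01. Scaled by total counts, EIF3B was called higher than in Input (2.41, edgeR adjusted p = 0.00163), above the median gene at 1.75. With total counts computed without the 2 most abundant genes it stood at -0.29 over Input, where the median gene stood at -0.94. The fitted values of all 10 members are set side by side in the plot of fold changes by comparison.

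**Figure D2:**
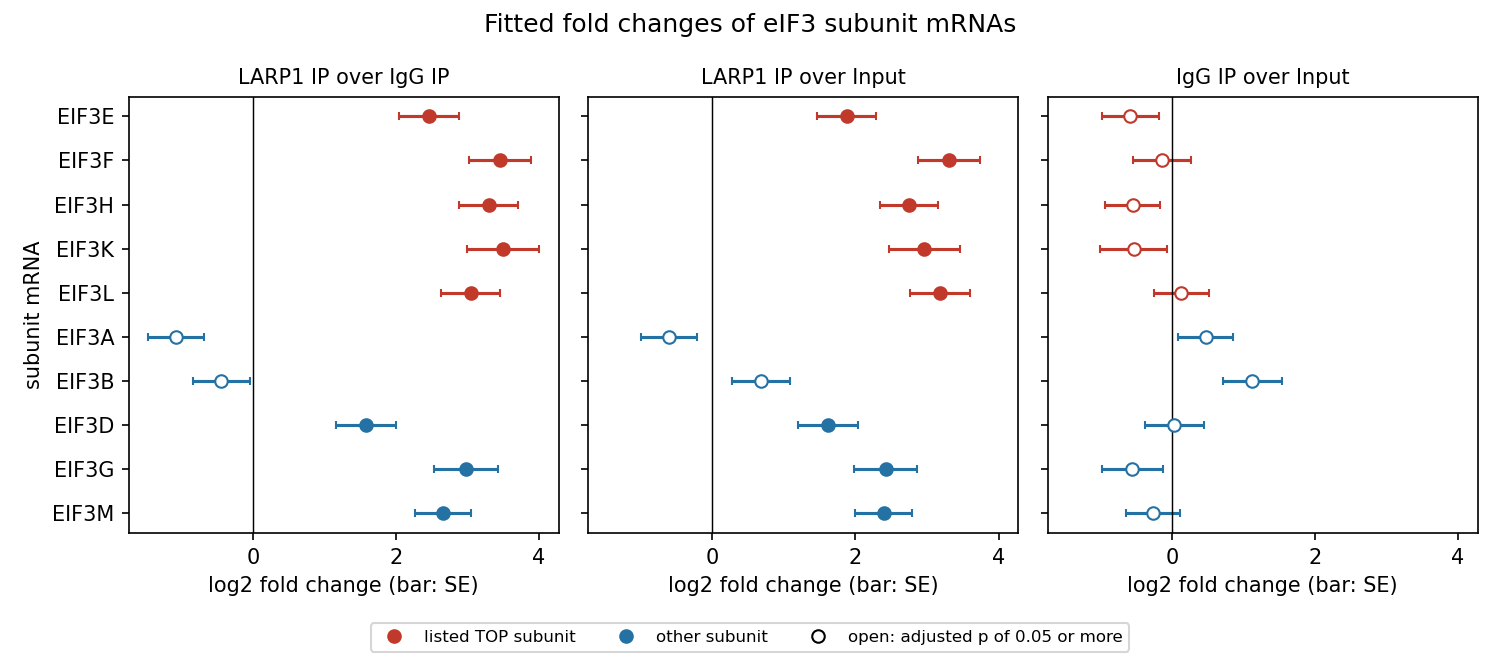
Fitted log2 fold change with its standard error for each eIF3 subunit mRNA in the LARP1 IP over the IgG IP, the LARP1 IP over Input and the IgG IP over Input. Filled points passed an adjusted p of 0.05: 8 members in each LARP1 IP comparison and 0 in the IgG IP over Input, with EIF3A and EIF3B open in every panel.

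The members were also placed among all genes tested. Over the IgG IP, 188 of the 10788 genes had a higher log2 fold change than EIF3K, 205 had a higher one than EIF3F and 466 a higher one than EIF3E, so the listed TOP subunits stood between the 95.7th and 98.3rd percentile. EIF3G and EIF3M stood at the 97.2nd and 96.4th percentile and EIF3D at the 90.6th. EIF3B stood at the 33.1st percentile and EIF3A at the 11.3rd. Over Input the listed TOP subunits ran from the 94.3rd to the 98.2nd percentile, with EIF3G and EIF3M at the 96.3rd and 96.2nd and EIF3D at the 92.5th. EIF3B stood at the 75.1st percentile there and EIF3A at the 23.8th.

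**Figure D3:**
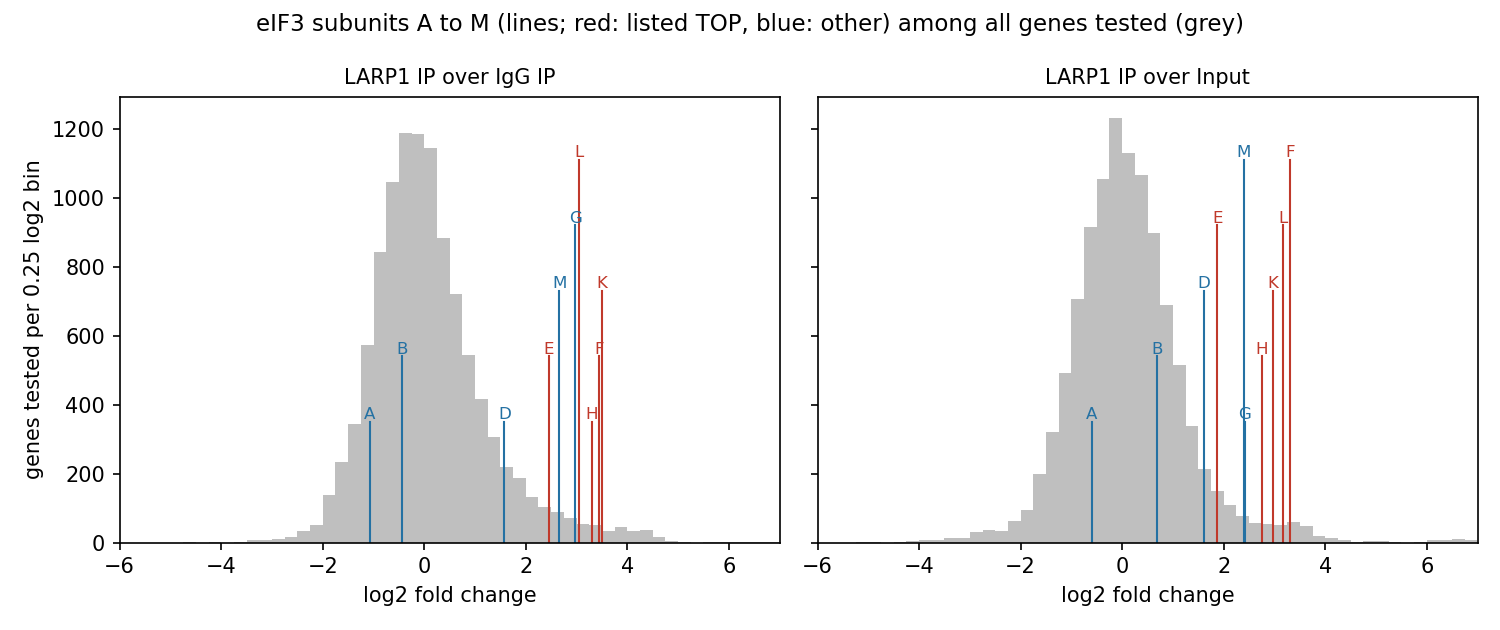
Histograms of the log2 fold changes of all genes tested (grey, 0.25 log2 per bin, with genes beyond the ends of the axis not drawn) for the LARP1 IP over the IgG IP and over Input, with a line at each eIF3 subunit; line heights serve only to separate the letters. Listed TOP subunits (red) lie between 2.46 and 3.50 over the IgG IP and 1.88 and 3.31 over Input, while the other subunits (blue) spread from -1.07 to 2.98 and from -0.60 to 2.42.

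The mean log2 fold change over the IgG IP was 3.15 for the 5 listed TOP subunits and 1.14 for the other 5, a difference of 2.01. Over Input the means were 2.82 and 1.302, a difference of 1.51. The ranges of the 2 sets overlapped in both comparisons, through EIF3G and EIF3M, whose folds exceeded that of EIF3E. Without LARP1 replicate 2 the sets did not overlap over the IgG IP, where EIF3M at 2.58 was the highest of the other 5 and EIF3K at 2.69 the lowest listed TOP subunit, while over Input EIF3M at 2.32 still lay above EIF3K at 2.16. Members of a set are not replicates, so these differences carry no p-value. Among the other 5, EIF3D, EIF3G and EIF3M averaged 2.40 over the IgG IP and 2.14 over Input, while EIF3A and EIF3B averaged -0.76 and 0.04; this division was made after the values were seen. The 4 members with a C-led pyrimidine run at the annotated start, EIF3D, EIF3F, EIF3K and EIF3M, were all called higher in both comparisons. So were EIF3E, EIF3G, EIF3H and EIF3L, whose starts were not read. EIF3B, read without such a run at a start inside the annotated gene, was called in neither comparison, nor was EIF3A, whose start was not read. With starts missing for 5 of the 10 members, whether the calls go with such a start cannot be told. Among all genes tested, 8.54% were called higher over the IgG IP and 4.63% over Input.

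A view within each library does not depend on how libraries are scaled. Each gene's log2 CPM was set against its own mean over the 6 libraries, and the mean of the other 5 subunits was subtracted from that of the listed TOP subunits. The result was 1.15 and 1.16 in the LARP1 IP, against -1.01 and -0.64 with IgG and -0.31 and -0.36 in Input. In this difference of means the LARP1 IP libraries were far closer to each other than to any control library. Single members did not move together, with EIF3E higher in LARP1 replicate 1 and EIF3K higher in LARP1 replicate 2. With 2 libraries a group, the smallest two-sided p of an exact permutation test is 0.333, so none is given.

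The same pattern was visible in raw counts. The listed TOP subunits took 88.3% and 86.3% of the counts of the 10 members in the LARP1 IP, against 62.0% and 69.8% with IgG and 75.2% and 75.0% in Input. EIF3A and EIF3B together took 2.21% and 1.75% in the LARP1 IP, against 24.96% and 15.3% with IgG and 10.01% and 10.9% in Input. EIF3L was the member with the most counts in both LARP1 IP libraries, at 26.5% and 27.9%, against 18.3% and 23.1% with IgG and 18.5% and 16.0% in Input. EIF3E took 22.8% and 11.2% in the LARP1 IP, against 19.4% and 18.3% with IgG and 23.9% and 27.2% in Input, where it was the largest part in both libraries. All 10 members together made up 0.835% and 0.671% of the LARP1 IP counts once the 2 most abundant genes were set aside, against 0.287% and 0.267% with IgG and 0.251% and 0.274% in Input.

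**Figure D4:**
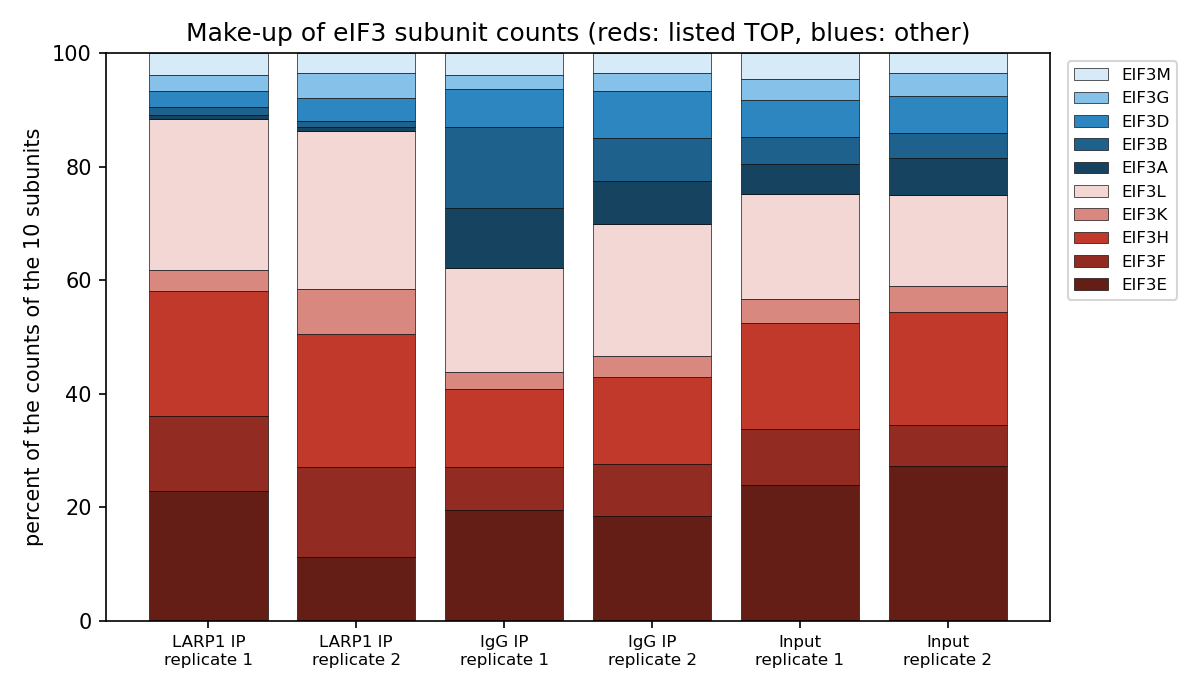
Share of each eIF3 subunit in the raw counts of the 10 members (percent, stacked to the whole) in the 6 libraries, LARP1 IP, IgG IP and Input from left to right. The red parts (listed TOP subunits) reach 88.3% and 86.3% in the LARP1 IP, and the darkest blue parts (EIF3A and EIF3B) are widest in IgG replicate 1, at 24.96% together.

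The IgG IP was set against Input to see how the control serum alone recovers these mRNAs. By edgeR 0 of the 10 members passed, as did 0 of all genes tested (0.00% in either direction, with 725 genes at an unadjusted p under 0.05), and DESeq2 called 38 genes, of which 0 were members. At an unadjusted p under 0.05 there was 1 member, EIF3B, higher in the IgG IP by 1.13 ± 0.41 on the log2 scale (edgeR adjusted p = 0.705). Both IgG IP libraries were above both Input libraries for EIF3A and EIF3B and below them for EIF3E, EIF3G, EIF3H, EIF3K and EIF3M, where 19.2% and 19.3% of all genes were above or below without overlap. Scaled by total counts, which put the median gene at 1.51, all 10 members had a positive log2 fold change and 7 were called higher by edgeR. EIF3D, EIF3F and EIF3L overlapped. The listed TOP subunits averaged -0.33 and the other 5 averaged 0.16 on the log2 scale, a difference of -0.50 that ran opposite to the one in the LARP1 IP. Among the other 5, EIF3D, EIF3G and EIF3M averaged -0.26, near the listed TOP subunits, while EIF3A and EIF3B averaged 0.80. This division was made after the values were seen. EIF3A and EIF3B were more abundant in IgG replicate 1 than in IgG replicate 2, at 654 and 882 counts against 464 and 472, and without IgG replicate 1 the difference between the sets was -0.30.

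With TMM scaling the order of the 3 groups differed between members, though no step between the IgG IP and Input was called. Scaled by total counts, every member was higher in the IgG IP than in Input, so the orders below hold for TMM scaling. For EIF3D, EIF3F and EIF3L the LARP1 IP was highest and the controls did not differ beyond their spread. For EIF3E, EIF3G, EIF3H, EIF3K and EIF3M the LARP1 IP was highest, followed by Input and then the IgG IP, though the last step was not called for any of them. For EIF3A the IgG IP was highest, Input next and the LARP1 IP lowest, with no step called. For EIF3B the IgG IP and the LARP1 IP overlapped, and both were above Input without a call.

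Genes outside the group with the most similar profile over the 6 libraries were found by the root mean square difference of centred log2 CPM, among 3055 genes whose mean level reached 10 CPM. Nearest to the mean profile of the listed TOP subunits were ENSG00000188846.13, at 0.098, and ENSG00000138326.18, at 0.145 on the log2 scale, while the 5 subunits themselves lay at 0.103 to 0.524 from their own mean. Both were higher in the LARP1 IP, by log2 fold changes of 3.23 and 3.33 over the IgG IP and 2.98 and 2.70 over Input (edgeR adjusted p = 0.000319 and 0.000263, then 0.000963 and 0.00135). Nearest to the mean profile of the other 5 were ENSG00000100568.10, at 0.0988, and ENSG00000189306.10, at 0.112. Neither was called, with log2 fold changes of 1.03 and 0.97 over the IgG IP (edgeR adjusted p = 0.105 and 0.143). The other subunits lay at 0.26 to 0.982 from that mean. The files do not pair these identifiers with symbols.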

How the data were processed

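The deposited files give raw read counts for each gene and library. Per the submitters' processing notes, the authors' tools included TopHat2 2.1.1, Bowtie2 and featureCounts from Subread 1.20.6, with GRCh38 as the genome build. What annotation release, strand rule and multi-mapping rule the counting used is not given in the sources used here, so reads shared with pseudogenes could be split or lost. Stranded libraries were made without poly(A) selection, per the labels' protocols.

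The counts were fitted in edgeR 4.0.16 (R 4.3.3): filterByExpr (minimum count 10), TMM scaling and 1 quasi-likelihood fit of all 6 libraries by group, tested over 10788 genes with Benjamini-Hochberg adjustment at 0.05. Standard errors were obtained from each log2 fold change and the square root of its F statistic. DESeq2 1.42.0, other scalings, other filters, fits of 4 libraries, single libraries left out and a replicate block were alternatives.

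The members and lists were chosen with earlier results of these data known. All 10 members are named, and the 2 nearest outside genes per set were added by profile distance. Lists of other initiation factors and of cell type markers were not applied, since no table used here pairs these identifiers with symbols.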

Additional observations from a re-analysis of the deposited data

How the results depend on the processing

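EIF3F, EIF3G, EIF3H, EIF3K, EIF3L and EIF3M passed as higher over the IgG IP under all 21 alternatives, as did EIF3E, and over Input under all except the 2 edgeR fits without an Input library. Over the 21 alternatives 7 to 9 members were called over the IgG IP. Over Input 10 were called with total counts, all higher, 0 by edgeR without Input replicate 1 or Input replicate 2, and 7 or 8 otherwise. For the IgG IP over Input 7 were called with total counts and 0 otherwise. In the edgeR fits without an Input library 0 of all genes passed over Input, 8 members had an unadjusted p under 0.05 and DESeq2 called 7 without either. Leaving out single libraries gave 7 to 8 called members over the IgG IP, 0 to 8 over Input and 0 for the IgG IP over Input. The difference between listed TOP and other subunits ran from 1.81 to 2.19 over the IgG IP, from 1.48 to 1.53 over Input and from -0.67 to -0.30 for the IgG IP over Input in those fits. Scaling by total counts put the median gene at 1.75 over Input for the LARP1 IP and 1.51 for the IgG IP, turned EIF3A over Input to 1.11 and raised EIF3B there to 2.41, both called higher, and turned EIF3F, EIF3H and EIF3M in the IgG IP over Input to 1.37, 0.95 and 1.26. Total counts computed without the 2 most abundant genes, chosen after seeing the data like the DESeq2 fits without single libraries, put the median gene at -1.25 over the IgG IP and -0.94 over Input. There 9 members were called over the IgG IP (7 higher and 2 lower) and 7 over Input (6 higher and 1 lower): EIF3A and EIF3B passed as lower over the IgG IP (-2.27 and -1.66), EIF3A passed as lower over Input (-1.58), EIF3D passed in neither (0.31 and 0.55), and EIF3E missed over Input (0.97). EIF3D also missed over the IgG IP in the fit of 4 libraries (edgeR adjusted p = 0.0629), and over Input with upper-quartile factors (0.0574) and a minimum count of 50 (0.0504). In the fit with a replicate block, 9 members were called over the IgG IP (8 higher and EIF3A lower), 8 over Input and 0 for the IgG IP over Input, so that EIF3A was the only changed call among the members (adjusted p = 0.0257). Over all genes, calls over the IgG IP numbered 2435 with the block and 1168 without it. Same-numbered libraries deviated together (correlations of 0.50 for LARP1 IP and IgG IP, 0.13 for LARP1 IP and Input and 0.24 for IgG IP and Input), a hint from the data only, since the labels name no shared batch. Apart from the construction of each alternative, the cause was not tested. Input held 70 to 581 counts per member. The standard errors of the members were nevertheless alike in the LARP1 IP comparisons, from 0.39 for EIF3A to 0.50 for EIF3K over either control.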
